A study of Mus musculus with 12 samples.

Results

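The chronic cold response of BAF60a-deficient fat was measured in inguinal white adipose tissue (iWAT), the subcutaneous fat depot of the mouse groin. It was the difference between 3 arrays of cold-acclimated mice without BAF60a in adipocytes (AKO Cold) and 3 arrays of AKO mice kept at room temperature (AKO RT), out of 12 arrays in 4 groups. AKO mice carried floxed alleles of Baf60a (gene symbol Smarcd1) and Adiponectin-Cre, a transgene active in fat cells, and the controls (flox) carried the floxed alleles without Cre. All were on chow, the labels gave an age of 9 months, and the strain of the arrayed mice was not in the labels. RT mice were held at 22 °C, and Cold mice spent 7 days at 10 °C once the chamber temperature had been lowered step by step. Each array was hybridised with equal amounts of RNA pooled from 1 or 2 mice, and the labels call the arrays of a group biological replicates. Since Adiponectin-Cre acts in adipocytes alone, the vessels, immune cells and progenitors of the AKO pads kept the gene. Values are log2 signals, so that a difference of 1 is a fold of 2. Of 22180 genes measured by a transcript cluster of their own, all were tested in the AKO cold response.

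White fat stores triglyceride, and brown fat burns it to make heat. In the cold, noradrenaline from sympathetic nerves raises cyclic AMP in fat cells of the inguinal pad, and beige adipocytes appear there that resemble brown ones, rich in mitochondria and in UCP1, which lets protons leak across the inner membrane. Fuel for that leak comes from fatty acid oxidation and the tricarboxylic acid (TCA) cycle. BAF60a is a subunit of the SWI/SNF complexes, which move nucleosomes and so set which DNA is open to transcription factors.

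Smarcd1 itself read 5.89, 6.26 and 6.30 in AKO RT and 6.27, 6.26 and 6.37 in AKO Cold. It did not differ with temperature in AKO (log2 difference 0.15 ± 0.18 SE, adjusted p = 0.855), and the flox arrays, from 6.27 to 6.91, overlapped the AKO arrays. A second, dimmer cluster named for Smarcd1 differed by -0.34 in AKO. The array signal thus did not check the deletion, since which exons the probes of these clusters cover is not given in the sources used here and other cells of the pad kept the gene. The paralog Smarcd2 differed by -0.17 (adjusted p = 0.755), and 0 of 26 measured SWI/SNF subunits passed the test in either direction (median difference -0.02). The adipocyte genes Adipoq and Fabp4, which define the tissue, read from 9.48 to 9.86 and from 11.99 to 12.12 in the 6 AKO arrays. Skeletal muscle transcripts were uneven. The mean of 25 muscle markers lay between 3.57 and 7.29 in AKO RT and between 3.28 and 7.89 in AKO Cold, with AKO RT 2, AKO Cold 2 and AKO Cold 3 the richest. None of the 25 passed the test (median difference 0.67).

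Cold changed 103 of 22180 genes in AKO iWAT, which is 0.464% of those tested (limma, adjusted p below 0.05). Of these, 84 rose (0.379%) and 19 fell (0.0857%). A rise of more than 2-fold was seen for 39 genes and a fall of more than 2-fold for 13. The median log2 difference was 0.96 among the genes that rose and -1.15 among those that fell. In all 103 genes the 3 Cold arrays lay entirely on one side of the 3 RT arrays, which held for 17.2% of all genes. The choice of the 103 by their adjusted p on these same arrays favours such a separation. The values spread evenly around 0 over all genes, where the median difference was 0.003 and 11213 of 22180 were above 0. At the level of the whole array the groups were close, with correlations of 0.981 to 0.987 within the AKO groups and 0.980 to 0.985 between them. Of the called genes, 31 passed in every one of 12 fits that each left out 1 array, and without 1 of the AKO arrays between 40 and 59 genes passed. Without the 3 arrays richest in muscle transcripts, which left 1 AKO Cold array whose spread is assumed to be that of the other groups, 12 genes passed, 7 of them among the 103 (Ucp1, Elovl3, Cox7a1, Slc27a2, Acot11, Chchd10 and Nnat). The two-sided test of Student, which the study's methods name for other data, called 2220 genes unadjusted and 0 after adjustment.

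The largest rise was that of Ucp1, the uncoupling protein of brown and beige fat. It read 3.10, 2.61 and 2.79 in AKO RT and 10.92, 10.41 and 10.59 in AKO Cold, a log2 difference of 7.81 ± 0.38 SE or 224-fold (adjusted p = 2.6e-06). The RT values lay below 3.64, the median of all values in the table, where a signal may be background, so the size of the fold is uncertain. Elovl3, an elongase of very long fatty acids known as a cold marker of brown fat, went from 2.64, 2.93 and 2.36 to 7.85, 7.55 and 7.07, also from below that median (difference 4.85 ± 0.36 SE, adjusted p = 9.09e-05). The groups were far apart for both genes. In all, 12 of the 84 genes that rose had an RT mean below the table median and share this limit, since RMA values carry no call of detection.

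In the thermogenic core, Ucp1 and Elovl3 included, 14 of 27 measured genes rose and 0 fell, with 25 above 0 and a median of 1.05. Cidea, which coats the lipid droplets of brown adipocytes and helps them fuse, read 7.91, 8.23 and 8.16 in AKO RT and 10.17, 10.08 and 10.15 in AKO Cold (difference 2.03, adjusted p = 0.00114). The mean of the 27 core genes was 5.29 to 5.41 in the AKO RT arrays and 6.80 to 6.94 in the AKO Cold arrays. The members were chosen with earlier results of these data known. Neither this separation nor the count of 14 is therefore an independent check. Dio2, the deiodinase that activates thyroid hormone within fat cells, went from 2.42, 2.54 and 2.50 to 5.25, 5.06 and 4.34 (difference 2.40, adjusted p = 0.00269). AKO Cold 3 was the lowest of the Cold arrays, yet well above RT. A second cluster of Dio2, dimmer, differed by 0.34. Otop1, a proton channel, went from 4.02, 4.28 and 4.86 to 6.94, 6.67 and 7.08 (difference 2.51, adjusted p = 0.00257). Ppara, a nuclear receptor that turns on genes of fat oxidation, rose by 1.23 and Letmd1, a mitochondrial protein, by 0.82. Members that did not pass included Plin5 (0.90, adjusted p = 0.0506), Ppargc1a (1.03, 0.127 adjusted p), Tbx1 (0.53), Tmem26 (-0.22) and Tnfrsf9 (0.01), the last 3 of which are used as beige markers.

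Genes are named here by a rule for the largest and most significant changes, and others were chosen after their values were seen. The latter, so far and in what follows, included Adipoq, Fabp4, Letmd1, Tbx1, Tmem26, Tnfrsf9, Uqcrc2, Ndufab1, Cpt1a, Cpt2 and Abcd3. The rest of them were Coasy, Slc25a42, Pank3, Pank4, Acot12, Pdha1, Pdhb, Hsd17b12, Pgd, Fasn, Scd1, Lipe, Fgf21 and the genes outside all lists.

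**Figure D1:**
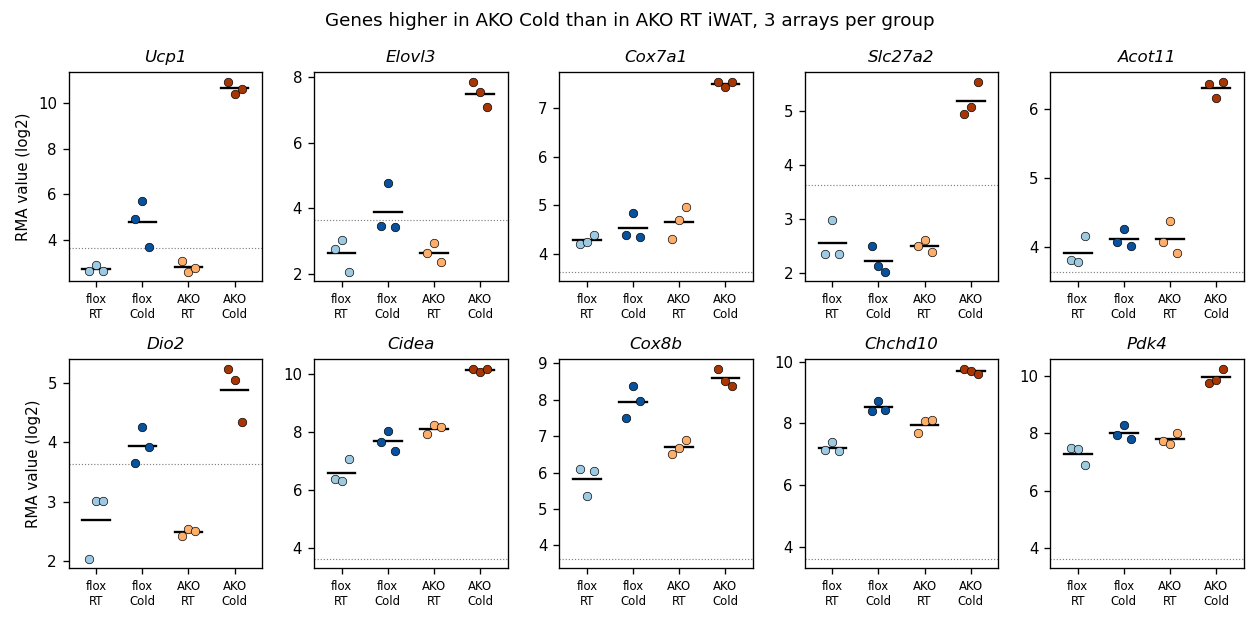
RMA value (log2, vertical axes) of 10 genes that rose with cold in AKO iWAT, with 3 arrays per group (points), the group mean (bar) and the median of all values in the table, 3.64 (dotted line). In each panel the 3 AKO Cold arrays lie above the 3 AKO RT arrays. The flox groups show a smaller difference or none in every panel except that of Cox8b. The difference between the genotypes passed the test for Ucp1, Cox7a1, Slc27a2 and Acot11.

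Promoter windows of RefSeq, 250 bases before to 50 after a gene's start on the GRCm38.p6 build, were found for 68 of the 84 genes that rose and 12 of the 19 that fell. Windows of 5 genes that rose are printed: Ucp1, Cox7a1 and Slc27a2, since their cold response differed between the genotypes (Acot11, of which this also held, had 2 windows from different starts and is not printed), and Dio2 and Cycs, since they hold an element of cyclic AMP signalling, the messenger of cold in fat. Each reads 5′ to 3′ along its gene. Capitals mark, on either strand, the cyclic AMP response element TGACGTCA, the nuclear receptor hexamer AGGTCA, which on the opposite strand reads TGACCT, and the CCAAT box, which there reads ATTGG. None of these overlapped another in the printed windows.
Ucp1, chr8:83290098-83290397, plus strand: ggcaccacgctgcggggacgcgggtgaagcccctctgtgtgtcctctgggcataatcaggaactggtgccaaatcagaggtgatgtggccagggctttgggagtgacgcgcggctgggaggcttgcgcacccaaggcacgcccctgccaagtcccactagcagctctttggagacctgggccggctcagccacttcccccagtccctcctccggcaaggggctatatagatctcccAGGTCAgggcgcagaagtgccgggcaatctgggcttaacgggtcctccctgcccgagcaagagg
Cox7a1, chr7:30183921-30184220, plus strand: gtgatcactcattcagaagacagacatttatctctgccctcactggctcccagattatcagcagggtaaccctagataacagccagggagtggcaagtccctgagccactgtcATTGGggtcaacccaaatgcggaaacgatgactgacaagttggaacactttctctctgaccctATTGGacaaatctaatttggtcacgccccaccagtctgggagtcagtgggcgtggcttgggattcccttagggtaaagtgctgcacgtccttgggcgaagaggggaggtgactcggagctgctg
Slc27a2, chr2:126552774-126553073, plus strand: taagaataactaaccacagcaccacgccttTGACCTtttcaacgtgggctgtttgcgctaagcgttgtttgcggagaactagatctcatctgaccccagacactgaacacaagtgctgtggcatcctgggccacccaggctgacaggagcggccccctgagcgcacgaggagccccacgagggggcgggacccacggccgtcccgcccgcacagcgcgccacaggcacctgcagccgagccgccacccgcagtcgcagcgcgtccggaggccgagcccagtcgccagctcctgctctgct
Dio2, chr12:90738989-90739288, minus strand: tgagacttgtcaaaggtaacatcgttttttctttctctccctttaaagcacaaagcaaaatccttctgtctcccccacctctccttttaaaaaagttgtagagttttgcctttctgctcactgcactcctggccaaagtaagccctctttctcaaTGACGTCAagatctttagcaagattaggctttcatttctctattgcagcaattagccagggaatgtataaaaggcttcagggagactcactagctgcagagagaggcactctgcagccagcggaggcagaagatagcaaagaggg
Cycs, chr6:50566520-50566819, minus strand: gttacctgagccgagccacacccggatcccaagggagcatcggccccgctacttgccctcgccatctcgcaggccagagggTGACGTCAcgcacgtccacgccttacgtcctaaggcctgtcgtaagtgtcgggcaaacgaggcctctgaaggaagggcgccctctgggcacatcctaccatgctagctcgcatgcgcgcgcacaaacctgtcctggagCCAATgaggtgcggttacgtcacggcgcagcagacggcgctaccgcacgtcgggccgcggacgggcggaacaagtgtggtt

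The Ucp1 window held the nuclear receptor hexamer 14 bases before the start, and that of Slc27a2 the reverse form 220 bases before it. Among the genes that rose, 14 of 80 windows (17.5%) held the hexamer, against 16.3% of all 32851 windows. Dio2 held the cyclic AMP response element 95 bases before its start and Cycs 169 bases before it. With Ndufa10 they made 3 of the 80 windows of genes that rose (3.75%), against 1.79% of all. Among the genes that fell Mturn held it, which is 1 of 14 windows (7.14%). The Cox7a1 window held the CCAAT box at 137 and 74 bases before the start, and 35% of the windows of genes that rose had that box against 37.4% of all. These are matches of letters in short windows and were not tested as binding sites.

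Cold also raised genes that carry out oxidative metabolism in mitochondria, by smaller steps than Ucp1. Of 69 measured subunits of oxidative phosphorylation 6 passed and 0 fell, while 67 lay above 0 (median difference 0.40). Cytochrome oxidase hands electrons to oxygen. In a separate list of its tissue-specific isoforms, 2 of 12 measured genes passed, Cox7a1 and Cox8b, and 11 lay above 0 (median 0.31). Cox7a1 read 4.30, 4.70 and 4.97 in AKO RT and 7.54, 7.43 and 7.54 in AKO Cold (difference 2.85 ± 0.17 SE, adjusted p = 1.54e-05), and Cox8b went from 6.50, 6.68 and 6.90 to 8.86, 8.53 and 8.39 (difference 1.90, adjusted p = 0.00531). The centred mean of the muscle markers was -0.52 in AKO RT 1, 2.31 in AKO RT 2 and -1.41 in AKO RT 3. It was -1.70 in AKO Cold 1, 1.22 in AKO Cold 2 and 2.91 in AKO Cold 3. The general subunit Cox5a rose by 0.74, the complex I subunits Ndufa10 and Ndufa1 by 0.62 and 0.60, Sdhc of complex II by 0.66 and Uqcrc2 of complex III by 0.59. Ndufab1, an acyl carrier protein of complex I left out of the list, rose by 0.60. Cycs, cytochrome c, went from 9.66, 9.73 and 9.68 to 10.57, 10.46 and 10.60 (difference 0.85, adjusted p = 0.00286), and 4 further clusters named for it, a gene with near-identical copies in the genome, differed by 0.67 to 0.76. Chchd10, a protein of the space between the mitochondrial membranes, went from 7.70, 8.07 and 8.11 to 9.77, 9.68 and 9.59 (difference 1.72, adjusted p = 0.000194). The mitochondrial ribosome and import list had 28 of 29 members above 0 and a median of 0.32, but 0 passed.

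Every one of the 26 measured genes of fatty acid beta-oxidation lay above 0 in AKO (median 0.56), as in flox (median 0.455). In AKO 7 of them rose while 0 fell. Slc25a20, the carrier that takes acylcarnitine into the mitochondrion, had the smallest p of them. It read 7.41, 7.38 and 7.63 in AKO RT and 8.54, 8.76 and 8.68 in AKO Cold (difference 1.19 ± 0.10 SE, adjusted p = 0.00025). Cpt2, which frees the acyl group again on the inner side, rose by 0.85. The later steps moved by similar amounts. Acadvl, the dehydrogenase for very long chains, rose by 0.97, Hadha, the alpha subunit of the trifunctional enzyme, by 0.80, and Etfdh, which passes the electrons to ubiquinone, by 0.93 from 9.39, 9.32 and 9.50 to 10.33, 10.32 and 10.35. Peroxisomal oxidation was represented by Ehhadh (1.05) and the transporter Abcd3 (0.78). Cpt1a, the liver-type entry enzyme, differed by 0.26 (adjusted p = 0.62).

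At the entry of pyruvate and in the TCA cycle, 5 of 26 measured genes rose, 0 fell and 23 were above 0 (median 0.50). Pdk4, a kinase that switches pyruvate dehydrogenase off, went from 7.72, 7.61 and 8.01 to 9.73, 9.86 and 10.24 (difference 2.17, adjusted p = 0.000448). Of the complex it acts on, Dlat rose by 1.09 and Pdhx by 0.86, while Pdha1, the subunit it phosphorylates, and Pdhb differed by 0.64 (adjusted p = 0.177) and 0.80 (adjusted p = 0.125). Mpc1, which brings pyruvate in, rose by 0.98. Idh3a, of the NAD-linked isocitrate dehydrogenase, went from 9.33, 9.21 and 9.28 to 10.36, 10.26 and 10.27 (difference 1.02, adjusted p = 0.00937).

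Coenzyme A is needed to activate fatty acids for either fate. Pank1, an enzyme at the entry to its synthesis, went from 5.16, 5.21 and 5.41 to 6.62, 6.36 and 6.87 (difference 1.36, adjusted p = 0.00286). Coasy, at the end of the route, rose by 0.83, and Slc25a42, which carries coenzyme A into mitochondria, by 1.01. Thus 3 of 8 measured genes of a list put together after the values were seen had passed. The median of that list was 0.27, with 6 genes above 0. Pank3, a relative of Pank1 with a mean of 10.25 in AKO RT, differed by 0.004 (adjusted p = 0.997). Pank4, another relative, differed by -0.10. Acot11 (2.19) and Acot12 (0.84), thioesterases that release coenzyme A, rose too, Acot12 with a signal below the table median in both groups.

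Some genes of fat synthesis rose as well. Of 18 measured genes of fatty acid synthesis 4 rose and 0 fell, with 15 above 0 (median 0.36). They supply acetyl groups (Acly, 1.20, and Acss2, 1.29), NADPH (Me1, 1.22) and chain length. Elovl6, an elongase of palmitate, went from 8.98, 9.67 and 9.72 to 11.03, 10.95 and 11.22 (difference 1.61, adjusted p = 0.0112). Hsd17b12, which acts in the elongation cycle, rose by 0.90 and Pgd, a source of NADPH, by 0.90. The central enzymes did not pass, with Acaca at 0.75 (adjusted p = 0.0703), Fasn at 0.40 (adjusted p = 0.351) and Scd1 at 0.27 (adjusted p = 0.385). In a joint list of triglyceride synthesis and glycerol metabolism all 14 measured genes were above 0 (median 0.31) and 3 rose. They were Agpat2 (1.03), Dgat1 (0.87) and Gpd2, the mitochondrial glycerol phosphate dehydrogenase (1.13). Fdps, of the route to sterols and prenyl groups, rose by 0.92, the only one of 19 cholesterol genes to pass, and 15 of them were above 0 (median 0.49). Cidea was the only gene of 20 in the lipolysis and lipid droplet list to pass (median 0.25), while Pnpla2 and Lipe, the main lipases, differed by 0.25 and -0.01.

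For sugar the picture was uneven. Gys2, the glycogen synthase isoform of liver, went from 5.72, 5.89 and 6.23 to 8.42, 8.17 and 8.15 (difference 2.30, adjusted p = 0.00592), and was the only one of 18 glycogen genes to pass. Slc2a5, a fructose transporter, went from 3.83, 4.08 and 3.77 to 6.10, 5.62 and 6.10 (difference 2.04, adjusted p = 0.0112). In glucose uptake and glycolysis 3 of 21 genes rose and 0 fell (median 0.27): Pfkl, a phosphofructokinase, by 0.76, Pgk1 by 0.64 and Slc16a1, a transporter of lactate and other monocarboxylates, by 0.84. With the mean of the muscle markers as a covariate in the fit, the median of that list was 0.172. Hk2, Ldha and the insulin-responsive transporter Slc2a4 differed by 0.07, 0.11 and 0.34, with adjusted p of 0.958, 0.813 and 0.684. Breakdown of branched-chain amino acids had 17 of 19 genes above 0 (median 0.25), but 0 passed.

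**Figure D2:**
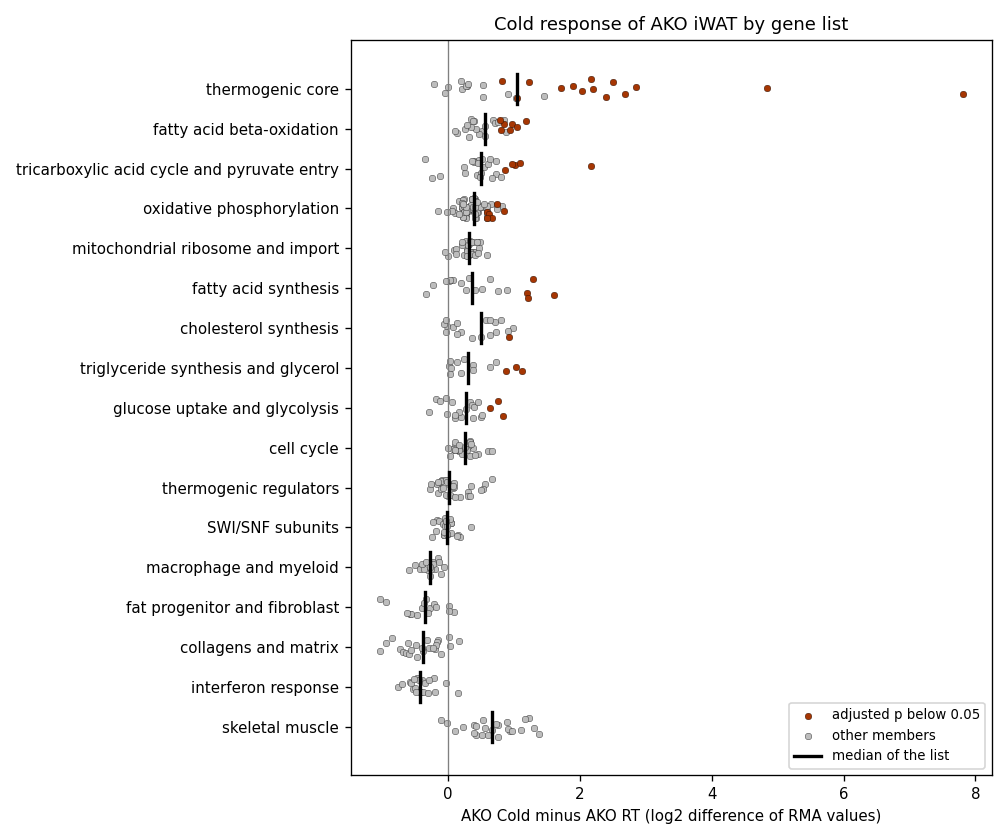
Log2 difference AKO Cold minus AKO RT (horizontal axis) of every measured member of 17 gene lists (rows), with genes past an adjusted p of 0.05 in dark colour, other members in grey and the list median as a bar. Medians run from 1.05 for the thermogenic core to -0.42 for the interferon response, and the muscle markers spread widely with 0 genes past the test.

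Of 31 measured transcription factors and cofactors of the thermogenic programme 0 passed in either direction and 16 lay above 0, with a median of 0.01. Ppargc1a, a coactivator of mitochondrial genes, read 7.02, 6.14 and 6.82 in AKO RT and 7.94, 7.44 and 7.68 in AKO Cold, where the groups did not overlap. Its relative Ppargc1b differed by 0.57 (adjusted p = 0.1), the retinoid receptor Rxrg by 0.67 (adjusted p = 0.0898) and the orphan receptor Esrrg by 0.53 (adjusted p = 0.322). Prdm16, Ebf2 and Pparg, which set brown or general fat cell identity, differed by -0.28, -0.16 and -0.16, and their arrays overlapped between the groups. Heat production without UCP1 has been ascribed to cycles of creatine and of calcium, and 0 of 8 and 0 of 11 genes of these passed. Atp2a2, the calcium pump of the latter, differed by 0.26 (adjusted p = 0.447). Ckmt2, the mitochondrial creatine kinase, was 1.69, 5.06 and 1.29 in RT and 1.49, 2.00 and 5.62 in Cold. It was high in AKO RT 2 and AKO Cold 3, the arrays of each group that were richest in muscle transcripts.

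Outside the lists lay 57 of the 103 genes, and those named in this paragraph were chosen after their values were seen. Several were mitochondrial: Coq8a, needed to make coenzyme Q, rose by 1.07, Slc25a51, the NAD carrier, by 0.72, Slc25a39, which imports glutathione, by 0.65, Ppif by 0.71, Gfm1, of mitochondrial translation, by 0.58 and Mtx2, of the outer membrane, by 0.47. Atp4b, known as the beta subunit of the proton pump of the stomach, went from 2.12, 2.23 and 2.26 to 3.52, 3.21 and 3.74 (difference 1.29, adjusted p = 0.00252). The level was low in both groups, yet without overlap. Reep6, a shaping protein of the endoplasmic reticulum, went from 9.10, 8.67 and 9.18 to 10.23, 10.33 and 10.27 (difference 1.29, adjusted p = 0.00196). Parm1 rose by 1.24, Paqr9 by 1.17, Kcna4, a potassium channel, by 0.94 and Nat8l, which makes acetylaspartate, by 0.97. Egln3, an oxygen-sensing prolyl hydroxylase, went from 4.61, 4.45 and 4.45 to 5.71, 5.61 and 6.0 (difference 1.27, adjusted p = 0.00285). Adcy10, the soluble adenylyl cyclase, rose by 1.20, while 0 of the 23 measured genes in the list of cyclic AMP signalling passed.

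Fewer genes fell, and several of them are products of white adipocytes. Nnat, neuronatin, a small protein of the endoplasmic reticulum, fell most. It read 9.82, 9.75 and 10.41 in AKO RT and 5.81, 5.96 and 6.73 in AKO Cold, which is 14.2-fold lower (difference -3.83 ± 0.33 SE, adjusted p = 0.00025), and a dimmer cluster of it differed by -0.98. Lep, leptin, the hormone that reports fat stores to the brain, was even at RT (11.31, 11.38 and 11.38) and read 9.90, 10.05 and 9.55 in Cold (difference -1.52, adjusted p = 0.0109). Npr3 clears natriuretic peptides, which stimulate lipolysis. It went from 10.68, 10.65 and 11.02 to 9.08, 9.08 and 9.09 (difference -1.70, adjusted p = 0.00269), and the Cold arrays lay close together. These were the 3 of 25 white adipocyte genes that passed, all downward, and the median of that list was 0.05, with Adipoq at -0.09 and Fabp4 at -0.06. In this bulk tissue fewer cells of a type and less RNA per cell cannot be told apart.

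Some of the other genes that fell encode secreted or matrix proteins. Hp, haptoglobin, which binds free haemoglobin, went from 10.78, 10.46 and 10.82 to 9.46, 9.22 and 9.11 (difference -1.43, adjusted p = 0.00178). Ccdc80, a secreted matrix protein, went from 9.84, 9.88 and 9.94 to 8.58, 8.71 and 8.42 (difference -1.31, adjusted p = 0.00316). The groups were well apart in both. Emp1, a membrane protein, differed by -1.75, Adamts5, a protease of the matrix, by -1.15, Has2, which makes hyaluronan, by -0.86, Hpgd, which breaks down prostaglandins, by -0.65, and Pla2g5, a secreted phospholipase, by -0.97. A dimmer cluster of Emp1 differed by -0.40. Prkag3, a subunit of the energy sensor AMPK best known from skeletal muscle, differed by -1.09 and was 4.28, 4.28 and 4.53 at RT and 2.99, 3.64 and 3.17 in Cold. Its Cold mean was below the table median, as was that of 4 of the 19 genes that fell. The remainder included Trim67 (-1.68), Eepd1 (-1.38), Mturn (-1.11) and Strip2 (-0.86).

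**Figure D3:**
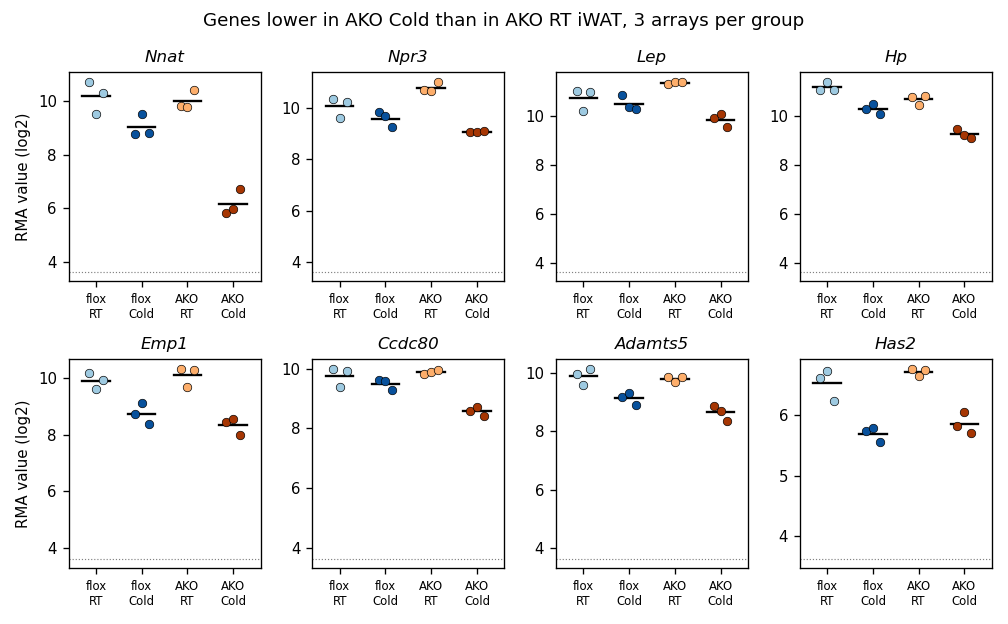
RMA value (log2, vertical axes) of 8 genes that fell with cold in AKO iWAT, with 3 arrays per group (points), the group mean (bar) and the median of all values, 3.64 (dotted line). The 3 AKO Cold arrays lie below the 3 AKO RT arrays in each panel, with the widest gap for Nnat.

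Collagens and other matrix genes were mostly lower without passing the test. Of 24 measured, 21 lay below 0 (median -0.38) and 11 had an unadjusted p below 0.05 downward, against 4.43% of all genes. Col3a1 and Col1a1, fibrillar collagens, differed by -1.03 (adjusted p = 0.0656) and -0.94 (adjusted p = 0.0818). Markers of progenitors and fibroblasts, which include those collagens, had a median of -0.34 with 13 of 16 below 0, and all 17 macrophage markers were below 0 (median -0.27), with Cd14 at -0.58 and Mrc1 at -0.43. In the interferon response 20 of 21 genes were below 0 (median -0.42). None of these 3 lists held a gene past the test. Endothelial markers had a median of -0.01. In the cell cycle list 26 of 27 were above 0, with a median of 0.26 and 0 past the test.

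In a list of 16 measured receptors and cofactors of hormone and nerve signals, which also held Npr3, counted above, 0 of the others passed. Mc2r, the receptor for adrenocorticotropic hormone, read 7.92, 7.57 and 7.90 in AKO RT and 7.94, 7.73 and 7.92 in AKO Cold (difference 0.07, adjusted p = 0.95). The arrays of both groups overlapped. Oxtr, the oxytocin receptor, differed by -0.13 and Kiss1r, the kisspeptin receptor, by -1.05 (adjusted p = 0.387), whose arrays, 6.54, 6.17 and 7.34 against 5.47, 5.09 and 6.35, overlapped. Of 18 secreted factors of thermogenic fat 0 passed, among them Fgf21 (-0.12), which was below the table median in all 6 arrays, and Nrg4 (0.32).

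The same change of temperature in flox iWAT, tested the same way, called 2 genes, Cox8b (2.12) and Chchd10 (1.30), which is 0.00902% of those tested, while 2093 genes there (9.44%) had an unadjusted p below 0.05 against 2188 (9.86%) in AKO. Without flox RT 3 the flox count became 104, of which 33 were higher and 71 lower in cold. The counts of calls do not test how the genotypes differ. Of the 103 genes, 98 had a difference of the same direction in flox, and 101 a larger one in AKO, which the choice of the genes by their AKO values favours. The median flox difference was 0.54 for the 84 and -0.44 for the 19. Gene lists moved in flox too, and their difference between genotypes was not tested. Flox medians were 0.334 for oxidative phosphorylation, 0.393 for the TCA cycle list, 0.498 for fatty acid synthesis and 0.513 for triglyceride synthesis. They were -0.308 for collagens and matrix, -0.32 for macrophage markers and -0.822 for the interferon response. The thermogenic core had a flox median of 0.32, and the cell cycle list one of -0.094. The test of the difference between both responses called 4 genes (0.018%), and 1061 had an unadjusted p below 0.05.

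Those 4 genes were Ucp1, Cox7a1, Slc27a2 and Acot11, all with the larger response in AKO. Ucp1 went from 2.63, 2.92 and 2.64 to 4.94, 5.72 and 3.71 in flox, a difference of 2.06, and the AKO response exceeded it by 5.75 ± 0.53 SE (adjusted p = 0.00188). Cox7a1 differed by 0.25 in flox and by 2.59 more in AKO (adjusted p = 0.00188). Slc27a2 codes for an acyl-CoA synthetase of very long fatty acids and was 2.50, 2.61 and 2.39 in AKO RT and 4.94, 5.07 and 5.54 in AKO Cold. In flox it stayed near 2.35, 2.98 and 2.34 at RT and 2.50, 2.13 and 2.02 in Cold, so that the AKO response exceeded that of flox by 3.03 (adjusted p = 0.00188). A second, dimmer cluster named for Slc27a2 differed by 0.03 in AKO. Acot11, a thioesterase known for its induction by cold in brown fat, went from 4.06, 4.38 and 3.91 to 6.37, 6.17 and 6.40 in AKO and differed by 0.20 in flox, and its excess was 1.99 (adjusted p = 0.0035). All 4 passed without any 1 of the 12 arrays. Without the 3 arrays richest in muscle transcripts, which left 1 AKO Cold array, only Acot11 passed (excess 2.18, adjusted p = 0.0467), while Ucp1 (5.92), Slc27a2 (2.84) and Cox7a1 (2.65) kept their size with an adjusted p of 0.0721, 0.0721 and 0.0941. Elovl3, with an excess of 3.58, and the predicted gene Gm14057, with an AKO minus flox difference of -1.64, just missed the threshold (adjusted p = 0.0563 each). Gm14057, chosen after its values were seen, differed by -1.02 in AKO and 0.62 in flox.

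For the other genes of the response no difference between the genotypes was resolved, at an SE of 0.21 in the median gene. Acly rose by 1.20 in both genotypes, with an excess of 0.00, Me1 by 1.22 and 1.18, and Dgat1 by 0.87 and 0.91, of which the flox values had an adjusted p of 0.0876 each. Cox8b, which passed in both genotypes, had an AKO minus flox difference of -0.22 (adjusted p = 0.986). Of the falls, Nnat had an AKO minus flox difference of -2.69 (adjusted p = 0.326), Lep differed by -0.22 in flox and Has2 by -0.83. Of the 103 genes, 48 had an unadjusted p below 0.05 in the test of the difference, a count that the choice of the genes raises, against 4.78% of all genes.

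**Figure D4:**
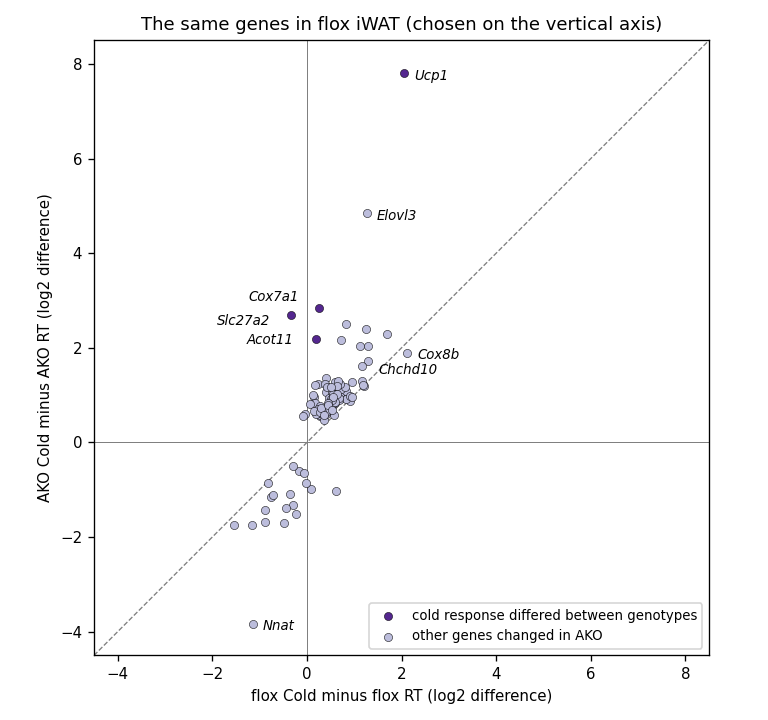
Log2 difference Cold minus RT in flox (horizontal axis) and AKO (vertical axis) of the 103 genes that cold changed in AKO iWAT, with the line of equal response dashed. The 4 genes whose response differed between genotypes are dark. The genes were chosen on the vertical axis, which by itself places most of them farther from 0 on it.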

How the data were processed

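RNA of mouse iWAT was measured on 12 single-colour Affymetrix arrays, 400 ng of total RNA each, in 4 groups of 3. The deposited values are log2 signals, for which the authors used RMA (R 3.1.1): background correction, quantile normalization and 1 summary value per transcript cluster. Whether all 12 arrays were normalized together is not given in the sources used here. RMA draws arrays to 1 distribution, so a shift of most genes at once would not be seen, and low signals compress folds.

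Of 41345 clusters, 23521 had exactly 1 gene symbol in the probe table, 1820 had several and 16004 none. The cluster with the highest mean stood for a gene, which left 22180 genes, and 0 columns of values were left out. Of these 23521 clusters, 23328 matched a RefSeq entry, and 0 symbols changed. limma 3.58.1 in R 4.3.3 fitted 1 mean per group over the 12 arrays, followed by eBayes (two-sided), and p-values were adjusted by Benjamini-Hochberg over all genes in each of 3 contrasts: cold in AKO, cold in flox, and the difference of both. The threshold was 0.05, and the procedure was checked on simulated data. Over all genes the SE in log2 units had a median of 0.151 in AKO and of 0.213 for the interaction. The number of arrays limits precision, since an exact permutation test of 3 against 3 cannot give p below 0.1.

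Gene lists (34 of pathways and 13 of cell markers) were described by counts and medians without a set test. The members, lists and naming rule were chosen with earlier results of these data known. Named genes were Smarcd1 and its measured paralog, the 15 largest rises and 15 largest falls that passed the test with groups that did not overlap (leaving out predicted genes, clones, receptor segments and small RNAs), up to 5 members of each list with the smallest p, genes the study's text names, and 6 rises and 6 falls of the interaction. The methods of the study give a younger age for cold acclimation than the labels.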

Additional observations from a re-analysis of the deposited data

Results flagged for a closer look

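The cold response differed between AKO and flox iWAT in 4 genes by the test of that difference (limma, adjusted p below 0.05 over 22180 genes). The AKO response exceeded the flox response on the log2 scale by 5.75 for Ucp1, by 3.03 for Slc27a2, by 2.59 for Cox7a1 and by 1.99 for Acot11. For Slc27a2 the flox difference was -0.34, opposite in sign to that of AKO, but it had an adjusted p of 0.655. Over the 12 fits that each left out 1 array, the excess ran from 5.21 to 6.22 for Ucp1, from 2.82 to 3.17 for Slc27a2, from 2.42 to 2.75 for Cox7a1 and from 1.87 to 2.12 for Acot11, and the highest adjusted p was 0.0214. With the muscle marker mean as a covariate all 4 had an adjusted p of 0.00319. Without the 3 arrays richest in muscle transcripts, which left a lone AKO Cold array, Acot11 passed (adjusted p = 0.0467) and the others did not, with an adjusted p from 0.0721 to 0.0941 and differences of 5.92 for Ucp1, 2.84 for Slc27a2 and 2.65 for Cox7a1. The RT signals of Ucp1 and Slc27a2 lay below the median of the table in both genotypes, which leaves the size of their excess uncertain.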

How the results depend on the processing

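The count of 103 genes for cold in AKO held within 1.5 times when arrays were centred (132) or quantile-normalized again (117), when clusters of a gene were averaged (117), with a 1.5-fold minimum (97) and with the muscle marker mean as a covariate (98, of which 83 were among the 103). It rose to 202 over genes above the overall median in at least 3 arrays, to 212 with trend and robust settings, to 208 with array weights and to 235 at an adjusted p below 0.1. It fell to 62 over every transcript cluster, to 68 with the 6 AKO arrays alone, to 12 without the 3 arrays richest in muscle transcripts, and to 0 with the methods' test after adjustment (2220 before). Rises were 70.7% to 91.7% of the calls in the settings above that adjusted p and made calls. Leaving out 1 array gave 40 to 123 genes, and the 31 of the 103 that passed in all 12 such fits were Ucp1, Elovl3, Cox7a1, Slc27a2, Acot11, Cidea, Dio2, Otop1, Cox8b, Chchd10, Pdk4, Gys2, Pank1, Slc25a20, Acadvl, Hadha, Etfdh, Cycs, Gpd2, Reep6, Parm1, Paqr9, Egln3, Kcna4, Retsat, Atp4b, Nnat, Npr3, Hp, Emp1 and Ccdc80.

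Whether replicate numbers pair the arrays is not given in the labels, and the main fit left them unpaired. Same-numbered AKO arrays had deviations that correlated at 0.28, 0.08 and -0.24, and so few values cannot decide it. A replicate block gave 74 genes for cold in AKO, 66 of them among the 103, as well as 1 for cold in flox and 6 for the difference of both responses. For cold in flox the count of 2 became 16 over genes above the median, 50 with trend and robust settings, 25 at an adjusted p below 0.1 and 1521 with the methods' test unadjusted, and 0 over every cluster, with the flox arrays alone, without the muscle-rich arrays or with the methods' test adjusted. Leaving out 1 array gave 0 to 104 there, the highest without flox RT 3, where 71 of the 104 were lower in cold. The 4 genes of the difference became 7 over every cluster, all 4 included, and 5 without the muscle-rich arrays, with Acot11 the only one of the 4 among them. Leaving out 1 array gave 4 to 13 there, the highest again without flox RT 3. The cause of these moves was not tested, other than fewer arrays or genes by construction.

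None of the 103 changed direction with the muscle covariate. Leaving out any single array could not turn them, since their AKO Cold and AKO RT arrays did not overlap. Nor could the replicate block, which is balanced over the groups and leaves the differences as they are. Of 11 further clusters that 8 of these genes had, 2 passed and 9 differed the same way without passing, and a further cluster of Pgam1 passed (1.16) where its main cluster did not. The sign of 33 of 47 list medians held without each AKO array, and the muscle markers, from -0.28 to 2.07, were among those that did not. Precision is set by 3 arrays per group, and 12 rises began and 4 falls ended below the table median, where RMA gives no limit of detection.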

Other observations

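Markers of mast cells and granulocytes were above 0 in 12 of 12 measured genes in AKO Cold minus AKO RT (median 0.30, 0 past the test). Their mean was 4.30 to 4.51 in AKO RT and 4.58 to 5.18 in AKO Cold. The largest difference was that of Siglecf (0.91), which rested on AKO Cold 1 (3.91, against 2.56 and 1.98 in the other Cold arrays). In flox 7 of the 12 were above 0 (median 0.02), and the difference between genotypes was not tested for the list.

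AKO Cold 1 also stood apart in genes of seminal vesicle secretion, chosen after their values were seen. Svs5 read 5.96 there and from 1.30 to 2.04 in the other 11 arrays, Svs2 read 4.63 against 1.45 to 2.08, and Svs4 read 4.81 against 1.36 to 2.03. With all 12 arrays none of these passed in AKO (adjusted p = 0.506 to 0.599), but where AKO Cold 1 was the only Cold array of AKO left, 4 such genes (Svs5, Svs2, Svs4 and Sva) were among the 12 called. What set that array apart was not tested.

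Genes near the threshold included the estrogen sulfotransferase Sult1e1 (-1.76, adjusted p = 0.068), chosen after its value was seen, the creatine synthesis enzyme Gamt (-0.94, adjusted p = 0.0597), the mitochondrial defence genes Sod2 (0.60, adjusted p = 0.0594) and Prdx3 (0.59, adjusted p = 0.0823), and the sterol genes Hmgcs1 (0.98, adjusted p = 0.0656) and Nsdhl (0.81, adjusted p = 0.0531), the last of which differed by 0.82 in flox.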
